A study of Saccharomyces cerevisiae with 4 samples.

Results

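A divergent promoter is the stretch of DNA between neighbouring genes that are read away from each other, so that a single upstream region serves both. Of 41480 array probes on the 16 nuclear chromosomes of the budding yeast Saccharomyces cerevisiae, 3649 (8.80%) were annotated as lying in such a promoter and started at least 20 kb from the first and last probe of their chromosome. A further 338 divergent promoter probes in the outer 20 kb were left out. Gene starts in the probe annotation gave the partners of each promoter, which tied all but 2 of the probes to 1328 gene pairs. A pair is written below as the gene read leftward, then the gene read rightward.

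In yeast, such shared upstream regions are commonly depleted of nucleosomes and hold the sites where transcription factors and the general transcription machinery assemble for both genes. Transcription from them often runs in both directions, and some pairs, such as those of the core histones or of GAL1 and GAL10, are regulated together from sites between them. Nup157 and Nup170 are related proteins of the inner ring of the nuclear pore complex, the channel through the nuclear envelope. Several pore proteins have been mapped to chromatin in yeast, including to promoters.

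The study mapped both proteins by chromatin immunoprecipitation on tiling arrays (ChIP-chip), in which antibody-enriched DNA is compared with whole cell extract DNA. By their labels, all strains were of mating type MATa, had the auxotrophic alleles lys2∆0 and ura3∆0 together with leu2∆0 and his3∆1, and carried 9 Myc epitopes on 1 pore protein, joined to the hphR marker. There were 4 libraries, 1 per group: NUP157-9xMYC wild type, NUP170-9xMYC wild type, NUP170-9xMYC with sir4∆::natR, and NUP170-9xMYC with yku70∆::natR. SIR4 encodes a silencing protein, and the YKU70 product is a part of the Ku heterodimer that binds DNA ends. Cultures were grown in rich medium (YPD) at 30 °C to an OD600 of 1, fixed with 1% formaldehyde for 1 h and sheared to 400 bp before precipitation with an anti-Myc antibody. No untagged strain was analysed here, so the ratio that the antibody would give without a tag is unknown.

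Values are log2(ChIP / extract), the mean of the 2 hybridisations of a library, each centred on the median of its nuclear probes. The 2 hybridisations are repeat measurements of 1 library and not replicates. Both are therefore given as the error, no test was made and no p-value is given. A pair value is the mean over the probes of the promoter. In the extract channel, the 15 probes in SIR4 stood at 70.6% of the other libraries in the library labelled sir4∆, lower at 15 of 15, and the 7 probes in YKU70 at 96.4% in the library labelled yku70∆. YKU70 was thus not lost from the extract of the library labelled for its deletion, and SIR4 was lowered but present. The 16 probes in LYS2 were near blank in the Nup157 library and in none of the Nup170 libraries, although all 4 labels give lys2∆0. The strains are called below by their labels.

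Divergent promoters gave lower ratios than gene bodies in all 4 libraries, by the most in the Nup170 wild-type library. There, the median of 3639 divergent promoter probes was -0.14 (-0.15 and -0.13 in the hybridisations) and that of gene-body probes was 0.018, and 70.2% of the promoter probes were below 0. In the library labelled sir4∆ the median was -0.081 (-0.11 and -0.045), with 65.5% of probes below 0. For the library labelled yku70∆ it was -0.10 (-0.098 and -0.099), with 68.3% below 0. The Nup157 library stood nearest to 0, with a median of -0.040 (-0.028 and -0.010) and 52.7% of probes below 0. Its probes were also the most widely spread, with quartiles of -0.38 and 0.32 against -0.31 and 0.038 for Nup170 in wild type.

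A probe was called low or high when its mean was at least 1.5-fold from the array median and had the same sign in both hybridisations. In the Nup170 wild-type library 150 divergent promoter probes were low, 4.12% against 1.00% of all nuclear probes, and 145 were high, 3.98% against 3.25%. In the library labelled sir4∆, 1.02% were low against 0.319% of the array, and 1.73% were high against 1.95%. The library labelled yku70∆ had 1.37% low against 0.379% and 2.75% high against 2.55%. With Nup157, the shares were close to those of the whole array, 13.0% low against 12.7% and 11.2% high against 12.1%. For Nup170, low probes were thus more common at divergent promoters than on the whole array, while high probes were near the array's share. Low probes were also more common than on the array at promoters with a gene on 1 side, at 3.34% with Nup170 in wild type, 1.08% in the library labelled sir4∆ and 1.35% in that labelled yku70∆.

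Promoters with a gene on 1 side (single-sided promoters) were the class most like these. Their medians were -0.10 with Nup157, -0.094 with Nup170 in wild type, -0.045 in the library labelled sir4∆ and -0.077 in that labelled yku70∆. Divergent promoters were thus lower than single-sided ones in the 3 Nup170 libraries, by 0.045, 0.037 and 0.023, and higher by 0.064 with Nup157. After a different background correction of the array signals (normexp) the difference was -0.0026 with Nup170 in wild type and turned to 0.066 and 0.030 in the libraries labelled sir4∆ and yku70∆. The order of the promoter classes with Nup170 therefore rests on the background correction, whereas the difference from gene bodies kept its sign. In the extract channel of the Nup170 wild-type library the median log2 signal was 14.41 at divergent promoters, 14.34 in gene bodies and 14.23 at single-sided promoters. From the lowest to the highest quartile of extract signal, the divergent promoter median in that library went from -0.061 to -0.18, and the part of the extract signal in the class medians was not tested beyond removing the trend with intensity, which left a median of -0.13.

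The ratio followed the distance from the gene start. For Nup170 in wild type, the 1219 divergent promoter probes within 100 bp of the nearer start had a median of -0.14 (-0.15 and -0.12). The lowest medians were -0.19 at 100 to 200 bp and -0.20 at 200 to 300 bp (-0.22 and -0.17). From 400 to 500 bp the median was -0.033 (-0.0043 and -0.051). The libraries labelled sir4∆ and yku70∆ had their lowest medians over the same distances, -0.13 at 200 to 300 bp and -0.15 at 100 to 200 bp. Single-sided promoters had a dip at the same place, with -0.17 at 100 to 200 bp for Nup170 in wild type, so the position of the dip was common to both promoter classes.

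With Nup157 the profile differed in its flanks. Divergent promoter probes had a median of -0.017 within 100 bp of the start, -0.11 at 100 to 200 bp and 0.077 at 400 to 500 bp (0.052 and 0.15). Beyond 1500 bp, over 54 probes, it was -0.23 (-0.13 and -0.27). On the other side of the start, inside genes of divergent pairs, the Nup157 median was 0.18 (0.18 and 0.21) at 400 to 500 bp, against 0.049 (0.027 and 0.078) inside the other genes. For Nup170 in wild type the same comparison gave 0.012 and 0.00041, and the gap with Nup157 was not even along the gene. It was 0.13 against 0.029 at 100 to 200 bp, 0.14 against 0.11 at 300 to 400 bp and 0.0062 against 0.0068 at 1100 to 1200 bp.

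**Figure D1:**
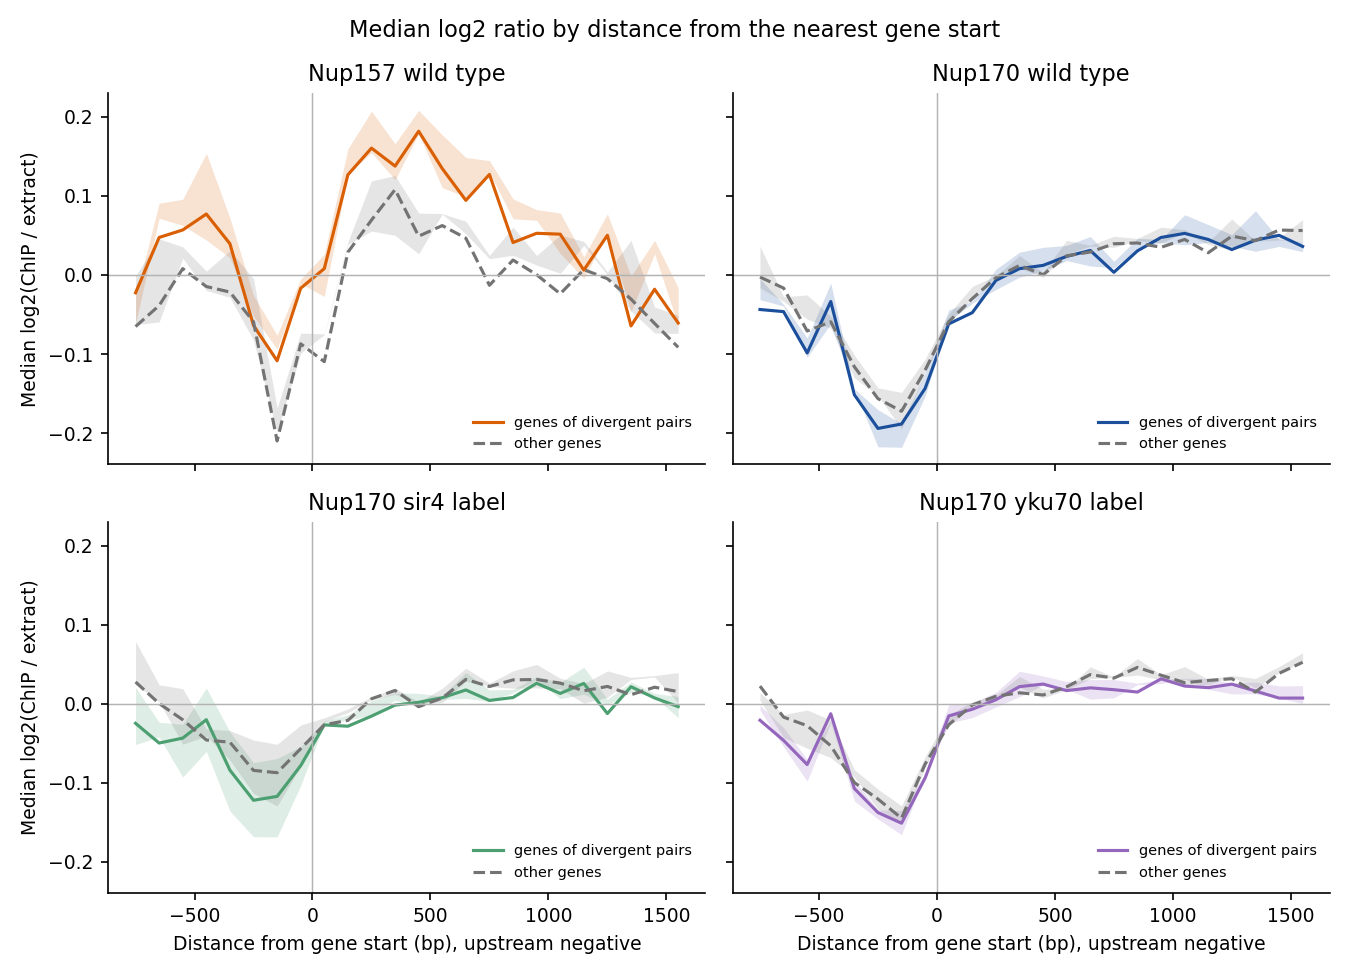
Median log2(ChIP / extract) in steps of 100 bp (vertical axis) against distance from the nearest gene start in bp (horizontal axis, upstream negative), in each of the 4 libraries. Solid coloured lines are genes of divergent pairs, dashed grey lines the other genes, and bands span the medians of the 2 hybridisations. The Nup170 libraries have their lowest medians between 100 and 300 bp upstream, and the Nup157 line rises to 0.18 at 400 to 500 bp inside divergently read genes.

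The Nup170 values over all pairs also rose with the distance between the partners' starts. This distance had a median of 562 bp and ran from 51 to 14638 bp. Over the 279 pairs less than 300 bp apart, the median pair value with Nup170 in wild type was -0.24 (-0.26 and -0.22), and 260 of the 279 were below 0. It was -0.21 at 300 to 500 bp, -0.18 at 500 to 750 bp, -0.14 at 750 to 1000 bp and -0.077 at 1000 to 2000 bp. Among the 70 pairs at least 2000 bp apart it was -0.021, and 39 of these were below 0. Medians in the libraries labelled sir4∆ and yku70∆ went from -0.14 and -0.17 in the closest pairs to 0.010 and -0.0017 in the most distant. Nup157 did not follow this order: its median was -0.14 at 300 to 500 bp, 0.034 at 500 to 750 bp and -0.058 at 2000 bp and over. Among pairs with no RNA gene between the partners, the Nup170 wild-type median was -0.18 at 500 to 1000 bp. It was -0.12 both at 1000 to 2000 bp and at 2000 bp and over, so the rise in the widest pairs was absent there. In the widest of these pairs the libraries labelled sir4∆ and yku70∆ had -0.067 and -0.094. Pairs less than 300 bp apart hold only probes near a start, where ratios were low, and these distances were not separated.

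**Figure D2:**
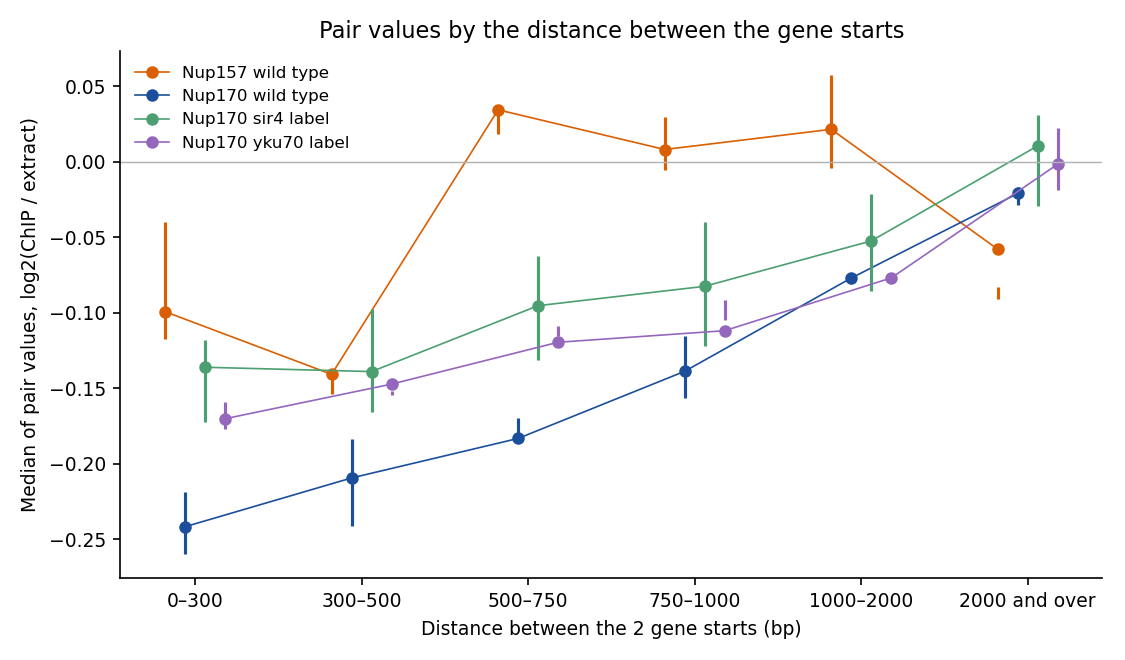
Median of pair values, log2(ChIP / extract) (vertical axis), for pairs grouped by the distance in bp between the 2 gene starts (horizontal axis), with 70 to 334 pairs in a group. Points are medians of the mean over hybridisations, and vertical bars span the medians of the 2 single hybridisations. With Nup170 in wild type the medians rise from -0.24 to -0.021 over all pairs, those with an RNA gene between included.

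Wide intergenic regions often hold genes for small RNAs, which RNA polymerase III or II transcribes. By the gene order of RefSeq (release R64, used for names and order and not for positions), 86 pairs had at least 1 tRNA gene between the partners, 12 had a small nucleolar RNA (snoRNA) gene, 10 had another RNA gene, 1214 had none and 6 could not be placed. The order used 1 coordinate per gene without its strand, so an RNA gene inside the gene read leftward may also be counted as between. Pairs around a tRNA gene had a median of 0.056 (0.10 and 0.010) with Nup170 in wild type, against -0.19 (-0.20 and -0.17) for pairs with none. The same contrast was 0.059 against -0.11 in the library labelled sir4∆ and 0.072 against -0.14 in that labelled yku70∆. In the Nup157 library the medians were -0.035 and -0.050, closer together than the hybridisations of the first, -0.094 and -0.042. Pairs around a tRNA gene were above 0 in 55 of 86 with Nup170 in wild type, and 171 of 1214 were so without an RNA gene.

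The difference was present among pairs equally far apart. At 500 to 1000 bp, 20 pairs with a tRNA gene had a median of 0.086 (0.16 and 0.011) with Nup170 in wild type and 475 with none had -0.18. At 1000 to 2000 bp, 30 pairs had 0.033 (0.057 and -0.0079) against -0.12 for 140 pairs. At 2000 bp and over, 35 pairs had 0.056 (0.075 and 0.079) against -0.12 for 30 pairs. The highest of these pairs with Nup170 in wild type was YOR192C-C/PEX27, at 0.78 (0.93 and 0.62), where PEX27 encodes a peroxisomal membrane protein. Its probes lie at chr15:709998-710323, in the positions of the files, which state no genome build. With Nup157 it stood at 0.71 (0.69 and 0.74), and in the libraries labelled sir4∆ and yku70∆ at 0.59 and 0.60. The lowest was ECM21/ATP1 at -0.39 over 1 probe, where ATP1 encodes a subunit of the mitochondrial ATP synthase, so a tRNA gene did not go with a high ratio at every pair.

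Without pairs that hold an RNA gene, an alternative chosen after the data were seen, the median within 100 bp of a start minus that at 300 bp and farther changed. It went from -0.062 to -0.018 with Nup170 in wild type, from -0.035 to 0.00088 in the library labelled sir4∆ and from -0.033 to 0.0095 in that labelled yku70∆. The difference between near and far probes in the Nup170 libraries was thus smaller or of the other sign without these pairs. With Nup157 the same step went from -0.024 to -0.065, and over all pairs it turned to 0.053 when far probes were those at 500 bp and farther.

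The 12 pairs around a snoRNA gene were higher still, with medians of 0.28 (0.12 and 0.22) with Nup157, 0.17 (0.26 and 0.11) with Nup170 in wild type, 0.12 in the library labelled sir4∆ and 0.16 in that labelled yku70∆. These 12 pairs were not split by whether they also held a ribosomal protein gene, another group with high Nup170 values. RPL33B/DFR1 led them, at chr15:779457-780751, between a ribosomal protein gene and the gene of dihydrofolate reductase. Its 6 probes averaged 0.86 (0.69 and 1.02), 0.97 (1.22 and 0.71), 0.68 (0.50 and 0.86) and 0.73 (0.80 and 0.65) in the same order. IMD4/SPC2 was the lowest with Nup170 in wild type, at -0.51 over 1 probe. Whether its snoRNA gene lies in the promoter or inside IMD4 was not tested. FSF1/YTM1, whose right partner YTM1 encodes a ribosome assembly factor, stood at 0.84 (0.85 and 0.82) with Nup157 and 0.40 (0.60 and 0.19) with Nup170 in wild type.

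Promoters of cytosolic ribosomal protein genes, among the most heavily transcribed genes of growing yeast, had high Nup170 values. At least 1 such gene belonged to 71 pairs. Their median with Nup170 in wild type was 0.33 (0.47 and 0.23), and 64 of 71 were above 0, against a median of -0.17 and 18.2% above 0 over all 1328 pairs. The library labelled yku70∆ had 0.24 (0.32 and 0.16) with 63 above 0. In the library labelled sir4∆ the median was 0.11 and the hybridisations differed, 0.0036 and 0.25, with 57 above 0. With Nup157 it was 0.22 (0.19 and 0.28) with 52 above 0, against 46.2% over all pairs. The 65 of these pairs with no RNA gene between had a median of 0.33 with Nup170 in wild type. Among the 1149 pairs with neither a ribosomal protein gene nor an RNA gene, 90.2% were below 0 in that library.

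RPL13B/RPS16A, at chr13:551386-551881, had the highest pair value in both wild-type libraries among pairs with at least 2 probes, each above the blank level and of 1 sign in both hybridisations. The same filter holds below for the highest and lowest pairs of a whole library and of a difference between libraries, and not for the extremes within a gene group. Its 3 probes averaged 0.98 (0.82 and 1.13) with Nup157, 1.13 (1.36 and 0.90) with Nup170 in wild type, 0.39 (0.10 and 0.67) in the library labelled sir4∆ and 0.68 (0.82 and 0.55) in that labelled yku70∆. The middle probe, 332 bp from the start of RPS16A, stood at 1.45 with Nup157 and 1.99 (2.25 and 1.73) with Nup170 in wild type. The probe 75 bp from that start stood at 0.42 and 0.56. The highest of the 3 was thus the middle probe. The remaining probe, 202 bp from the start of RPL13B, read 1.05 and 0.63 with Nup170 in wild type. No promoter probe lay nearer that start. RPS16B/RPL13A, the pair of the sister copies at chr4:307860-308113, stood at 0.79 with Nup157, 0.64 with Nup170 in wild type, 0.11 in the library labelled sir4∆ and 0.29 in that labelled yku70∆. The copies are near identical in their coding parts, and how far probes in either shared signal was not tested.

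RPL42B/CHS7, at chr8:382835-383465, joins a ribosomal protein gene to a gene for export of chitin synthase. Its value was 0.38 (0.10 and 0.66) with Nup157, 0.83 (0.96 and 0.71) with Nup170 in wild type, 0.34 in the library labelled sir4∆ and 0.54 in that labelled yku70∆. With Nup170 in wild type its outer probes read 0.59 and 0.10 and its middle probe 2.00 and 1.61 in the hybridisations, from the ribosomal protein side to the CHS7 side, and with Nup157 the 3 probes read 0.50, 1.36 and -0.72. RPL11A/PRE2, which pairs a ribosomal protein gene with a proteasome subunit gene, stood at 0.80 (0.65 and 0.96) and 0.74 (0.95 and 0.52) in the wild-type libraries. RPS29B/TSR1, with an assembly factor of the small ribosomal subunit, stood at 0.31 and 0.70. These pairs were above 0 in all 4 libraries.

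Where a ribosomal protein gene faced another kind of gene, its side of the promoter tended to be the higher one. In 58 such pairs that had probes on both sides, the ribosomal protein side was the higher one in 38 with Nup157, 38 with Nup170 in wild type, 37 in the library labelled sir4∆ and 37 in that labelled yku70∆. The median difference between sides was 0.20 with Nup157 (0.13 and 0.22 in the hybridisations) and 0.20 with Nup170 in wild type (0.28 and 0.13). It was 0.12 (0.036 and 0.19) in the library labelled sir4∆ and 0.13 (0.11 and 0.11) in that labelled yku70∆. In single hybridisations the ribosomal protein side was the higher one in 31 to 40 of the 58 pairs. In the Nup170 wild-type library, the first 100 bp upstream of the ribosomal protein gene had a median of 0.42 over 32 probes, and the first 100 bp upstream of the partner had -0.018 over 19 probes. At 100 to 200 bp upstream the sides were closer, at 0.33 over 24 probes and 0.22 over 25 probes. The bodies went further apart, with 0.66 over 41 probes at 300 to 500 bp inside the ribosomal protein gene and -0.032 over 49 probes inside the partner. Mitochondrial ribosomal protein genes had 40 pairs with lower medians, -0.24 with Nup170 in wild type, 4 of them above 0, and -0.073 with Nup157. At least 1.5-fold above the array median were 1 of these pairs with Nup170 in wild type and 4 with Nup157. The highest in both was YML6/RPS17A, at 0.64 and 0.70 over 1 probe, whose right partner is a cytosolic ribosomal protein gene. In 20 of the mitochondrial pairs with probes on both sides, the mitochondrial ribosomal protein side was the higher one in 13 with Nup157. It was so in 12 with Nup170 in wild type, 10 in the library labelled sir4∆ and 12 in that labelled yku70∆. With Nup157 the share was thus close to that of the cytosolic genes. For ribosome biogenesis genes the same counts were 13, 13, 14 and 13 of 26.

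**Figure D3:**
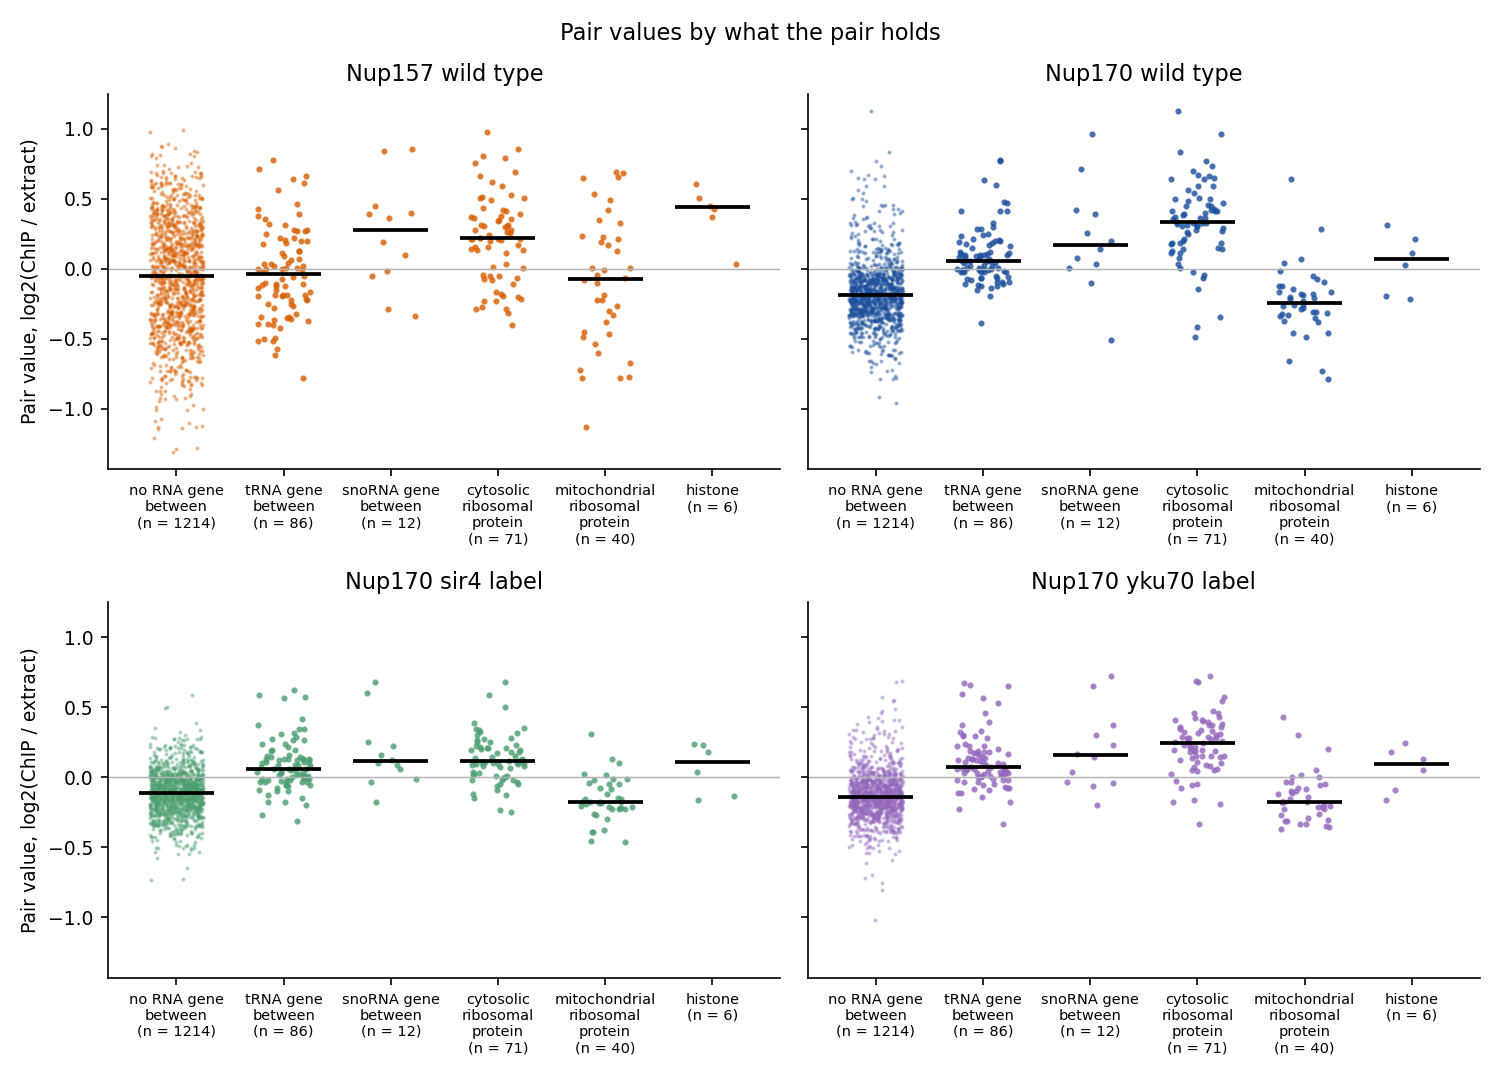
Pair values, log2(ChIP / extract) (vertical axis), in each of the 4 libraries for pairs grouped by what lies between the genes or by a gene they contain (horizontal axis, with the number of pairs). Points are pairs, bars are medians, and a pair can appear in more than 1 group. In the Nup170 libraries pairs with a tRNA, snoRNA or cytosolic ribosomal protein gene lie above those with no RNA gene between, and with Nup157 the histone pairs have the highest median.

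The core histone genes are arranged as 4 divergent pairs, transcribed together in S phase. With Nup157 all 4 promoters were above 0: HHF1/HHT1 stood at 0.60 (0.83 and 0.38), HTB1/HTA1 at 0.50 (0.39 and 0.61), HTA2/HTB2 at 0.45 (0.41 and 0.49) and HHT2/HHF2 at 0.37 (0.35 and 0.40). With Nup170 in wild type they stood at 0.028 (-0.0066 and 0.063), 0.21 (0.29 and 0.13), -0.19 (-0.14 and -0.24) and 0.31 (0.46 and 0.16). Pair values with Nup157 lay above those with Nup170 in wild type in both hybridisations for all of them except HHT2/HHF2, whose hybridisations overlapped.

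At 2 of the histone promoters the libraries differed most at a middle probe. At HTA2/HTB2 (chr2:235962-236465) the probe 186 bp from HTB2 stood at -0.67 (-0.78 and -0.57) with Nup170 in wild type and 0.38 (0.66 and 0.10) with Nup157. At HHF1/HHT1 (chr2:255628-256242) the probe 278 bp from HHT1 stood at -0.42 (-0.46 and -0.37) and 0.73 (0.96 and 0.50). In contrast, the bodies of the histone genes were high with Nup170 in wild type, at 0.90 for HTA2, 0.66 for HTB2 and 0.97 for HHT1, against 0.64, 0.15 and 0.77 with Nup157. With Nup170 the histone promoters thus stood well below the genes that flank them. Of the other histone genes with a divergent promoter, HHO1 (linker histone) formed a pair with NAN1 that stood at 0.034 and -0.22 in the wild-type libraries. The 6 pairs with a histone gene had medians of 0.44 with Nup157 and 0.072 with Nup170 in wild type. GAL10/GAL1, which is repressed in glucose medium, stood at 0.075 with Nup157 (-0.20 and 0.35, the hybridisations differing in sign) and -0.14 (-0.11 and -0.16) with Nup170 in wild type.

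Other gene groups lay nearer the median of all pairs. With Nup170 in wild type the medians were -0.22 for 52 pairs with a ribosome biogenesis gene, -0.12 for 19 with a proteasome gene, -0.14 for 33 with an amino acid biosynthesis gene, -0.16 for 14 with a nuclear pore gene, -0.15 for 29 with a meiosis gene and -0.19 for 13 with a translation factor gene. Glycolysis genes had 9 pairs with a median of -0.041 (-0.033 and -0.10), and galactose and other inducible genes 5 pairs with -0.093. With Nup157 these groups had medians between -0.057 (-0.090 and -0.094) for ribosome biogenesis and 0.10 (-0.052 and 0.035) for translation factors. The hybridisations of the latter differed in sign. Within groups the spread was wide: with Nup157 the proteasome pairs ran from -1.10 at YTH1/RPN7 to 0.82 at AIM46/RPN10, each of which rests on 1 probe.

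The lowest promoters in the Nup170 wild-type library were YML083C/YML082W (-0.74), DCP2/MLS1 (-0.68), RET1/PTP2 (-0.62), PUF3/YEH1 (-0.61) and PNC1/VIR1 (-0.61). DCP2 encodes the mRNA decapping enzyme, MLS1 a malate synthase, RET1 a subunit of RNA polymerase III, PUF3 an RNA-binding protein and PNC1 a nicotinamidase. At DCP2/MLS1 (chr14:405729-406054) the hybridisations read -0.59 and -0.76, and in the libraries labelled sir4∆ and yku70∆ the pair stood at -0.36 and -0.43. All 5 pairs were below 0 in the 3 Nup170 libraries. With Nup157, YML083C/YML082W stood at 0.40 (0.34 and 0.46) and RET1/PTP2 at 0.37 (0.51 and 0.22), whereas PUF3/YEH1 and PNC1/VIR1 stood at -0.45 and -0.54. At PUF3/YEH1 the bodies of the genes were at 0.10 and -0.12 with Nup170 in wild type, so the low values were those of the promoter.

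Promoters were set against both flanking gene bodies in 1079 pairs with probes in all parts. With Nup170 in wild type the promoter was below both bodies in 71.6% of these pairs and above both in 9.18%, and the median of promoter minus mean body was -0.19 (-0.21 and -0.17). The library labelled yku70∆ had 68.5% below both and that labelled sir4∆ 59.1%, with 67.3% and 48.4% in its single hybridisations. With Nup157 it was 48.0% below both and 20.8% above both. Over the same pairs the promoter value and the mean body value correlated with r = 0.45 with Nup157 and 0.35 with Nup170 in wild type. The bodies of the partners correlated with r = 0.23 and 0.042. These correlations are across pairs of 1 library, which share its hybridisations and, within a sheared fragment's length, some of their DNA, and they are descriptive.

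Nup157 and Nup170 ranked the pairs differently. Over 1328 pairs, values of single hybridisations correlated within a library with r from 0.57 to 0.72. Means of the 2 hybridisations correlated among the 3 Nup170 libraries with r from 0.77 to 0.84. The first range is for single measurements and the second for means, so they are not directly comparable. Between the means of the Nup157 library and those of the Nup170 libraries r was 0.21 to 0.32, as a description of pairs that share probes and base composition. Nup157 minus Nup170 in wild type had a median of 0.072 over divergent promoter probes, with 0.056 to 0.10 over the 4 pairings of hybridisations, and -0.012 in gene bodies. A probe was called different when it differed at least 1.5-fold and the hybridisations of the libraries did not overlap. By this rule 595 divergent promoter probes (16.4%) were higher with Nup157, against 10.8% of all nuclear probes, and 345 (9.48%) were lower, against 12.1%. Of the 345 lower probes, 92 (26.7%) lay in pairs around a tRNA gene and 41 (11.9%) in pairs with a ribosomal protein gene. Among the 595 higher probes those numbers were 39 (6.55%) and 11 (1.85%). Such pairs held 529 (14.5%) and 233 (6.40%) of the 3638 divergent promoter probes compared.

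**Figure D4:**
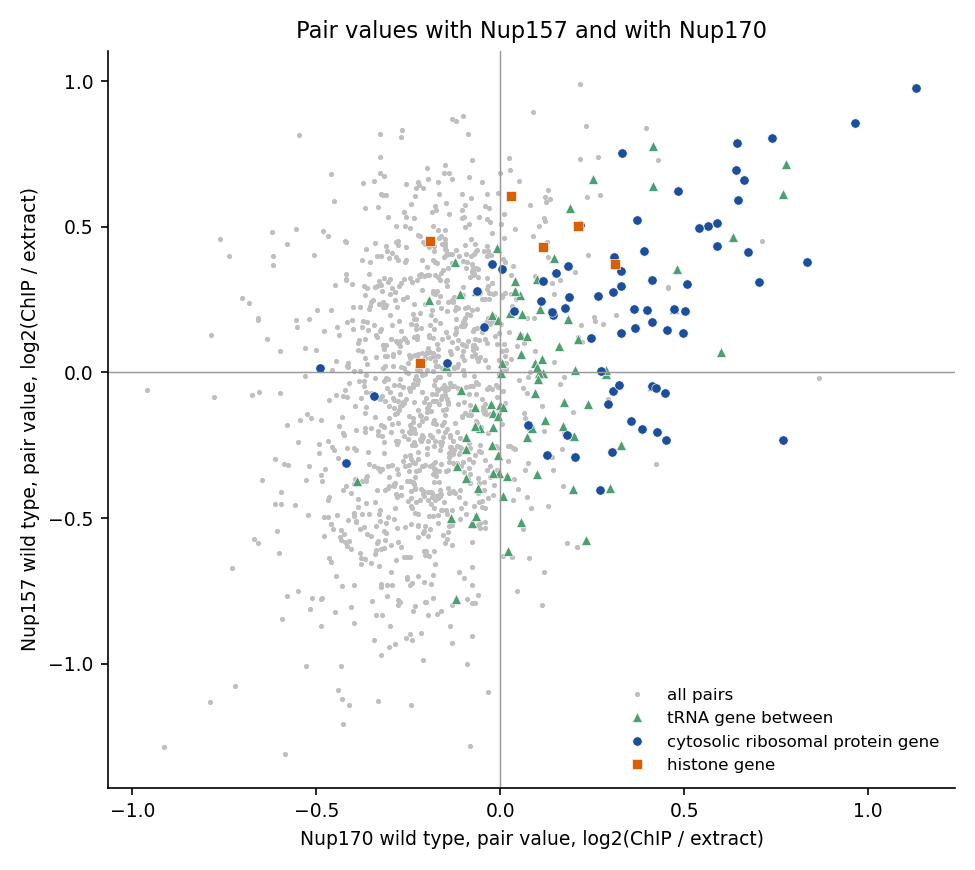
Pair value with Nup157 (vertical axis) against pair value with Nup170 in wild type (horizontal axis), both log2(ChIP / extract), for 1328 divergent pairs. Grey points are all pairs, with pairs around a tRNA gene, pairs with a cytosolic ribosomal protein gene and pairs with a histone gene marked. Most grey points lie left of 0 and on both sides of 0 vertically, while ribosomal protein pairs lie mainly to the right.

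VID22/STP3, at chr12:871416-871648, stood furthest above its Nup170 value. It stood at 0.82 (0.78 and 0.86) with Nup157 and at -0.33 (-0.36 and -0.30) with Nup170 in wild type, a difference of 1.15. STP3 encodes a zinc finger protein. SPT23/RAM2, where SPT23 encodes a membrane-bound activator of fatty acid desaturation and RAM2 a prenyltransferase subunit, differed by 1.14, from -0.46 to 0.68. YML083C/YML082W also differed by 1.14. YER039C-A/GLN3, with the activator of nitrogen catabolism genes, differed by 1.10, and UME6/MSS4, with the regulator of early meiotic genes, by 1.08. In the libraries labelled sir4∆ and yku70∆ VID22/STP3 stood at -0.34 and -0.22, on the side of the other Nup170 library.

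In the opposite direction, SOP4/RPS14B (chr10:73534-73761) stood at -0.23 (-0.22 and -0.24) with Nup157 and 0.77 (1.06 and 0.48) with Nup170 in wild type, the largest difference of this sign. It was the one ribosomal protein pair among those named as furthest below. Its values in the libraries labelled sir4∆ and yku70∆ were 0.59 (0.42 and 0.76) and 0.69 (0.77 and 0.61). The body of RPS14B was high in both wild-type libraries, at 0.68 and 1.12, so that the libraries differed at the promoter more than in the gene. EMC2/BIR1, which pairs an endoplasmic reticulum membrane complex gene with a chromosomal passenger gene, differed by -0.90 and had the lowest Nup157 value, -1.14 (-1.53 and -0.75). ARL1/UBS1 followed at -1.13 (-1.27 and -0.98), where ARL1 encodes a Golgi GTPase. SEC59/YMR013W-A differed by -0.89, YOR365C/SCP1 by -0.83 and MET5/IML1 by -0.80.

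**Figure D5:**
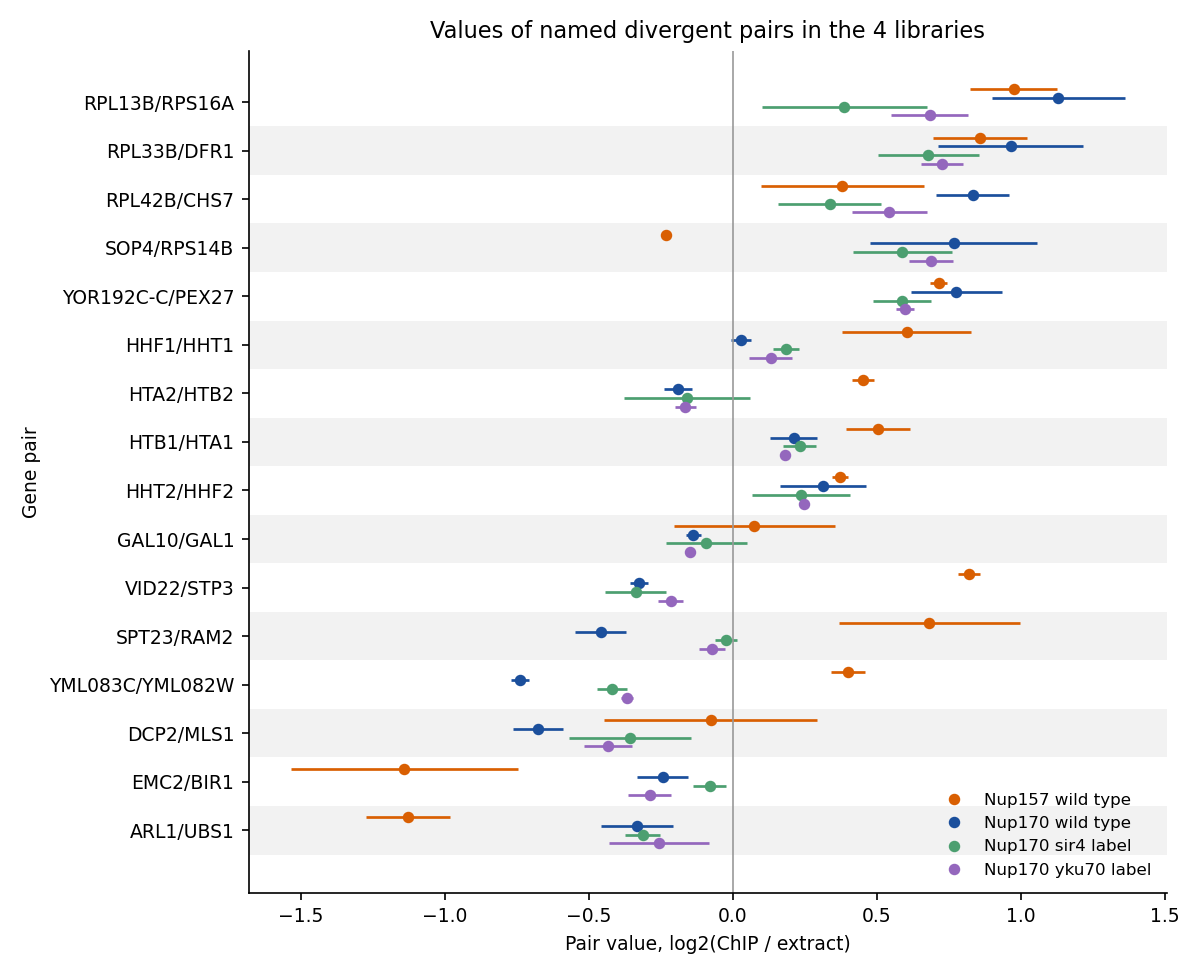
Pair values, log2(ChIP / extract) (horizontal axis), of 16 named divergent pairs (vertical axis) in the 4 libraries. Points are means and horizontal bars span the 2 hybridisations. VID22/STP3, SPT23/RAM2 and YML083C/YML082W lie above 0 with Nup157 and below 0 with Nup170 in wild type, and SOP4/RPS14B the reverse.

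The libraries labelled sir4∆ and yku70∆ were each set against the same Nup170 wild-type library, so these differences share it, and share it with the Nup157 difference. In the library labelled sir4∆ the median difference over divergent promoter probes was 0.048, with 0.0014 to 0.088 over the 4 pairings, and -0.017 in gene bodies. In that labelled yku70∆ it was 0.033 (0.031 to 0.043), against -0.0026 in gene bodies. Single-sided promoters moved the same way, by 0.038 (0.014 to 0.074 over the pairings) and 0.016 (0.00017 to 0.038). A shallower dip than in wild type was thus seen in both promoter classes. The lowest pairing was near 0 for divergent promoters in the library labelled sir4∆ and for single-sided ones in that labelled yku70∆. The spread of the whole array was also smaller, and how much of the shallower dip goes with it was not tested. The lower-side SD of the array, the distance from the median down to a low quantile, was 0.19 and 0.18 in these libraries. It was 0.22 for Nup170 in wild type and 0.50 with Nup157.

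Few single probes passed the call. In the library labelled sir4∆, 5 divergent promoter probes (0.137%) were higher, against 0.184% of all nuclear probes, and 20 (0.550%) were lower, against 0.280%. The balance of these calls rests on the background correction, since normexp gave 136 higher and 47 lower. The share of all nuclear probes called with normexp was not counted. The 5 higher probes, named here after their values were seen, lay in SRP40/PTR2, YML083C/YML082W, DIS3/TAT2, CAL4/GPI14 and TOA1/SLK19. The largest difference, 0.96, was at the probe of SRP40/PTR2, which read 1.09 and 2.00 in the library labelled sir4∆ against 0.23 and 0.93 in wild type. PTR2 encodes a peptide transporter. Of the 20 lower probes, 17 lay in pairs with a ribosomal protein gene, which held 233 (6.40%) of the 3638 probes compared, and the remaining 3 in TKL2/TEF2, COA2/GUP2 and GCN4/MIT1, where TEF2 encodes translation elongation factor 1 alpha and GCN4 a transcription factor of the amino acid starvation response.

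At the middle probe of RPL13B/RPS16A, which had the largest difference (-1.22), the library labelled sir4∆ read 0.46 and 1.09 and wild type 2.25 and 1.73. At RPL42B/CHS7 the probe 344 bp from RPL42B read 0.60 and 0.88 against 2.00 and 1.61. The gap was wider in the first hybridisation, which was lower than the second for ribosomal protein pairs in the library labelled sir4∆ and higher in wild type. Whether the hybridisations or the strain set this difference was not tested. As pairs, RPS16B/RPL13A (-0.53), YGR117C/RPS23A (-0.43) and VMA6/RPL6B (-0.39) were furthest below wild type, followed by BBC1/MPS3 and ALG3/YBL081W. SPT23/RAM2 was furthest above, at -0.024 against -0.46, a difference of 0.44.

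In the library labelled yku70∆ no divergent promoter probe was called higher (0 of 3638, against 0.106% of all nuclear probes) and 3 were lower (0.0825%, against 0.109%). Both shares were near or under the background, and normexp gave 35 higher and 22 lower, for which no share of all nuclear probes was counted. The 3 lower probes, named after their values were seen, lay in RPL13B/RPS16A, SNU56/AMD2 and PUP2/ENO1, where ENO1 encodes the glycolytic enzyme enolase. The probe in RPL13B/RPS16A, the one that was also lower in the library labelled sir4∆, read 1.45 and 0.95 against 2.25 and 1.73, and that in PUP2/ENO1 read -0.14 and 0.19 against 0.59 and 0.81. Among pairs that passed the filter, RPS27B/ECM12 was furthest below wild type, at 0.026 against 0.37.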

How the data were processed

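Each library was co-hybridised with its own whole cell extract (ChIP in Cy5, extract in Cy3). The deposited intensity columns hold foreground, background and normalised signals of each channel, with Agilent Feature Extraction named in the submitters' processing notes and no version. The deposited log2 columns hold the authors' log2 ratios of the normalised signals per hybridisation, which was checked on the values, and a combined log2 ratio that equals the series' value table. No genome build is stated in the sources, so positions are those of the files.

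Probes marked for exclusion and 295 mitochondrial probes were left out. Each of the 2 hybridisations was centred on its nuclear median and the mean taken. Partners were read from gene starts (probe midpoint plus annotated distance). RefSeq named 5639 of 5659 genes and gave the order of RNA genes. Median probe spacing was 257 bp. With 1 library in each group no test was possible, and precision is set by how few arrays there are. The named pairs were, in each library, the 8 highest and 5 lowest, and in each difference the 5 highest and 5 lowest, that passed the filter in the text, plus the core histone and GAL pairs, pairs with both genes in 1 of 11 gene lists and the extremes of each list. The members, lists and rules were chosen with earlier results of these data known. Alternatives were the authors' combined ratio, normexp (limma 3.58.1, offset 50), a lowess fit to intensity, no near-blank probes, single hybridisations, 50 kb from the ends, division by the lower-side SD, a 2-fold call and other distances. The steps were tested on simulated data. No sequence is shown, since none was used here.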

Additional observations from a re-analysis of the deposited data

How the results depend on the processing

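No paired analysis was possible because each group holds 1 library. Of 246 summary values under the alternatives, 180 were judged the same, 61 moved further and 5 turned sign. Medians, differences and distance steps were judged by the spread between hybridisations, pooled over libraries. Counts were judged within 1.5 times, high shares by a binomial interval over probes, and values divided by the lower-side SD by sign alone. Of 4140 values of named pairs, 503 moved further and no called value turned sign. For pairs, single hybridisations (416 values each) could not move under this rule, and division by the lower-side SD (416) could not turn sign. Those settings say nothing on the stability of pairs. Leaving out near-blank probes moved none of the summary values. Division by the lower-side SD cannot change the sign of a value within 1 library, so the lack of moves there shows nothing. The differences between libraries kept their sign under it. At most 11 divergent promoter probes in a library were near blank. The background correction still mattered: with normexp 16 summary values moved further, 2 turned sign and 11 stayed the same. The number of libraries is a further limit. Below, libraries are Nup157, Nup170 in wild type, sir4∆ label and yku70∆ label. Shares of all nuclear probes were not counted under the alternatives, so counts and high shares below cannot be set against the array.

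With normexp the difference from gene bodies was -0.083, -0.21, -0.12 and -0.16, that from single-sided promoters 0.094, -0.0026, 0.066 and 0.030, the high share 20.4%, 7.72%, 7.67% and 6.92%, the distance step -0.016 (sir4∆ label) and -0.0032 (yku70∆ label), and the called probes 136 higher and 47 lower (sir4∆ label) and 35 higher and 22 lower (yku70∆ label). At 2-fold the high share was 1.40%, 0.797%, 0.247% and 0.495%, with 115 higher and 51 lower for Nup157, 0 and 2 for the sir4∆ label and 0 lower for the yku70∆ label. With the far limit at 500 bp the distance step was 0.053 (Nup157) and -0.053 (sir4∆ label), and at 50 kb from the ends -0.043 (Nup157). Without RNA gene pairs it was -0.065, -0.018, 0.00088 and 0.0095, and without ribosomal protein pairs 3 probes were lower in the sir4∆ label, both added after seeing the data.

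Single hybridisations cannot be tested for overlap, so more probes pass. In the first, 531 were lower for Nup157, 63 higher and 122 lower for the sir4∆ label, and 64 higher and 27 lower for the yku70∆ label; the high share was 13.4%, 5.74% and 3.60% (Nup157, Nup170 in wild type, yku70∆ label). For the sir4∆ label its median was -0.11, its difference from gene bodies -0.13 and from wild type 0.018. In the second, 55 were higher for the sir4∆ label, and 21 higher and 25 lower for the yku70∆ label; the high share was 13.7%, 2.72% and 2.83% (Nup157, Nup170 in wild type, sir4∆ label). The median was -0.010 for Nup157 and -0.045 for the sir4∆ label, whose difference from gene bodies was -0.049 and from wild type 0.084. The second also gave 0.11 for Nup157 against single-sided promoters and distance steps of -0.056 (Nup157) and -0.044 (Nup170 in wild type). With the authors' combined ratio the sir4∆ label had a median of -0.11, -0.13 against gene bodies, 0.010 against wild type, and 11 higher and 53 lower probes, and the yku70∆ label 3 higher. Removing the trend with intensity gave 1 higher for the yku70∆ label. The cause of these changes was not tested.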
